A study of Solanum lycopersicum with 4 samples.

Results

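EXP1 (Solyc06g051800), EXP2 (Solyc06g049050), EXP5 (Solyc02g088100) and EXP18 (Solyc06g076220) encode alpha-expansins of tomato (Solanum lycopersicum). They were taken by name and gene ID, with no measured value in the rule itself, although earlier results of these data were known. All 4 were found among the 33976 transcripts listed. Their transcripts were measured by RNA sequencing of floral apices and closed buds in 2 libraries of 156OE, which is MT overexpressing the microRNA miR156, and in 2 libraries of MT itself. MT commonly stands for Micro-Tom, a dwarf tomato, and both genotypes share that background. The sources used here do not give the promoter that drives miR156, the number of transgenic lines or the plants behind each RNA replicate. P-values therefore measure only the spread between these libraries, which may be technical. The study's title names gibberellin and the miR156 module as regulators of floral meristems and fruit patterning.

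Expansins are small secreted proteins that let the cellulose and hemicellulose network of the plant cell wall slip at acidic pH, so that a cell under turgor can enlarge. They act without cutting wall polymers, unlike the endoglucanases, xyloglucan enzymes and pectin-cutting enzymes that work beside them. In tomato, EXP18 is known from shoot apices, where its transcript marks the site of the next leaf primordium. EXP2 is known from growing hypocotyls and from auxin treatment, EXP5 from the growth and maturation of green fruit, and EXP1 from ripening fruit, where its suppression gives firmer fruit.

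The 156OE libraries held 8440384 and 1685657 assigned reads and the MT libraries 11203505 and 9369713. The second 156OE library was thus the shallowest, and 1 read in it was worth 0.593 CPM (counts per 1000000 assigned reads). The median size of the log2 difference between replicates, over all tested genes on the log2(CPM + 1) scale, was 0.32 in 156OE and 0.13 in MT. The 3 SBP-box IDs examined, from the family that miR156 is known to target, had a summed level of 89.0 and 57.5 TPM in the 156OE libraries and of 279 and 298 TPM in the MT libraries. TPM are transcripts per 1000000, scaled for length. No level of miR156 itself was examined. The meristem genes WUS, CLV3, TKN2 and AN and the floral organ genes TM5, TM6 and TAG1 had reads in every library. Of the pollen markers, LAT52 had no read in 156OE and 0 and 1 reads in the MT libraries. LAT56 had 14 and 2 reads in 156OE and 69 and 43 in MT. The ripening polygalacturonase gene PG2, a defining marker of ripe fruit, had no read in any library.

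All 4 alpha-expansin genes had a positive change in 156OE, as did 51.6% of all 18385 genes tested, and none passed the test over all genes. EXP1 entered the test only through its 156OE libraries, so its sign is not a result. EXP18 was by far the most abundant of the 4 in every library, and EXP1 was close to the detection limit. EXP2 was 2.70 and 1.83 times the pooled MT level in the 156OE libraries (95% counting intervals 2.20 to 3.31 and 1.18 to 2.73, CPM ratios). EXP18 was 1.36 and 1.98 times that level (1.27 to 1.45 and 1.78 to 2.19). EXP5 was 0.921 and 1.98 times the pooled MT level (0.804 to 1.05 and 1.63 to 2.39). All CPM values and ratios here use library totals, without the scaling factors of the edgeR fits. Those factors were 0.910 for the second 156OE library and 1.03 for each other library. The CPM ratios of the second 156OE library to MT are therefore lower than the edgeR changes.

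EXP18 had 165.6 and 234 TPM in the 156OE libraries, against 127.1 and 128.0 TPM in the MT libraries. Both 156OE libraries lay above both MT libraries, and the MT libraries lay close together. The level averaged 199.9 ± 48.5 TPM in 156OE and 127.6 ± 0.649 TPM in MT (SD, n = 2 each), so the spread was in the 156OE pair. These levels placed EXP18 above 97.0% and 97.9% of all listed transcripts in the 156OE libraries and above 95.8% and 96.0% in the MT libraries. The estimates rest on 1480 and 431 reads in 156OE and on 1454 and 1207 reads in MT. EXP18 is thus a strongly expressed gene of this tissue in both genotypes.

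EXP5 had 25.9 and 54.1 TPM in the 156OE libraries, against 31.1 and 27.2 TPM in the MT libraries. The groups overlapped: the first 156OE library was the lowest of the 4 and the second the highest. The means were 40.0 ± 19.9 TPM in 156OE and 29.1 ± 2.75 TPM in MT (SD, n = 2 each). The reads behind them were 300 and 129 in 156OE and 461 and 333 in MT.

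EXP2 had 24.8 and 16.3 TPM in the 156OE libraries, against 9.90 and 9.17 TPM in the MT libraries. Here too both 156OE libraries exceeded both MT libraries. The first 156OE library was the higher, the reverse of EXP5 and EXP18. The EXP2 counting intervals of the 156OE libraries overlapped, however (21.5 to 28.4 and 10.8 to 23.5 TPM). EXP2 averaged 20.5 ± 6.03 TPM in 156OE and 9.54 ± 0.518 TPM in MT (SD, n = 2 each). It rests on 207 and 28 reads in 156OE and on 106 and 81 reads in MT. Its place among all transcripts was above 78.2% and 73.0% of them in the 156OE libraries and above 61.8% and 60.5% in the MT libraries.

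EXP1, the ripening expansin, had 14 and 2 reads in the 156OE libraries and 11 and 4 reads in the MT libraries. These counts correspond to 1.30 and 0.906 TPM in 156OE and to 0.802 and 0.353 TPM in MT. The 2 reads of the second 156OE library lie under 3 reads (1.78 CPM there), the limit that a count of 0 would allow. Their exact 95% Poisson interval runs from 0.110 to 3.27 TPM and covers all other values of the gene. All such intervals cover counting error only. Pooled by genotype, 16 reads in 156OE stood against 15 in MT, a CPM ratio of 2.17 with a 95% counting interval of 1.003 to 4.71. At this depth a difference in EXP1 could barely be told from none.

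**Figure D1:**
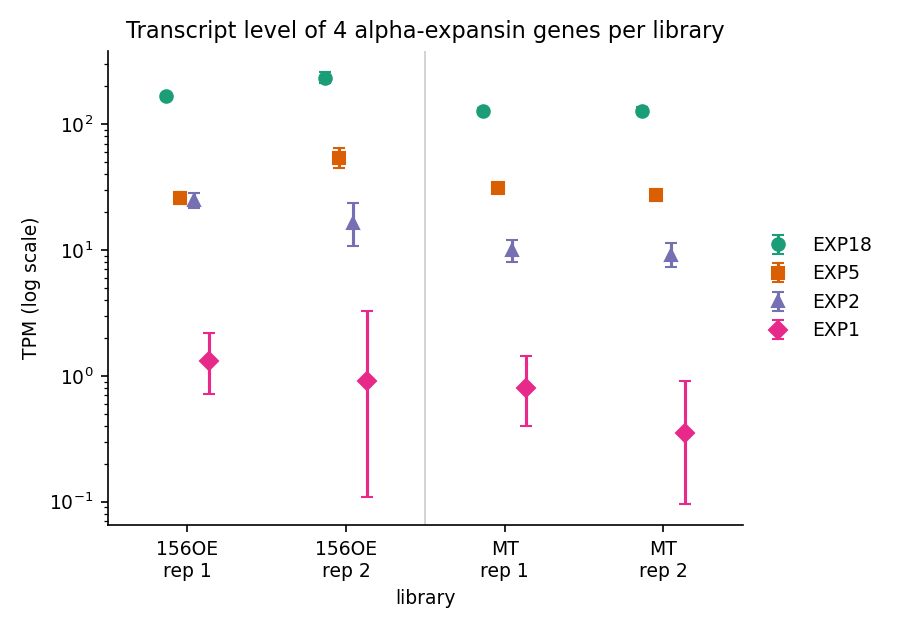
Transcript level of each alpha-expansin gene in TPM (log axis) in each 156OE and MT library. Points are the deposited TPM and bars are exact 95% Poisson intervals from the reads of that library. EXP18 lies between 127.1 and 234 TPM throughout, EXP2 is higher in both 156OE libraries, EXP5 stands out only in the second 156OE library, and the EXP1 intervals overlap.

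The order of levels was EXP18, EXP5, EXP2, EXP1 in all 4 libraries. EXP18 exceeded EXP5 6.40 and 4.33 times in the 156OE libraries and 4.09 and 4.71 times in the MT libraries. EXP5 and EXP2 could not be separated in the first 156OE library, where EXP5 was 1.04 times EXP2 and their counting intervals overlapped (22.99 to 28.9 TPM for EXP5 and 21.5 to 28.4 TPM for EXP2). In the other libraries EXP5 was 3.33 times EXP2 in 156OE, and 3.14 and 2.97 times in MT. EXP2 in turn exceeded EXP1 19.0 and 17.9 times in 156OE and 12.4 and 26.0 times in MT. The ratios to EXP1 are loose, since they rest on its few reads.

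Taken as 1 pool, the 4 genes summed to 217.6 and 305.5 TPM in the 156OE libraries, against 168.9 and 164.7 TPM in the MT libraries. The share of EXP18 in that sum was nearly the same everywhere, at 76.1% and 76.7% in 156OE and at 75.3% and 77.7% in MT. The remainder was divided less evenly. EXP2 made up 11.4% and 5.32% in 156OE against 5.86% and 5.57% in MT. EXP5 made up 11.9% and 17.7% in 156OE against 18.4% and 16.5% in MT. The first 156OE library therefore stood apart in its balance of EXP2 and EXP5. In the second, the shares of EXP5 and EXP18 lay between those of the MT libraries, at a higher summed level.

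Changes were tested with edgeR's quasi-likelihood test, fitted on all genes and adjusted by Benjamini-Hochberg. It called 0 of the 4 genes at an adjusted p under 0.05, where 0.00544% of all tested genes were called higher and 0% lower. DESeq2 also called 0 of the 4, against 0.685% of all genes called higher. At an unadjusted p under 0.05, edgeR placed EXP2 and EXP18 on the higher side, with 6.28% of all genes. For EXP2 the log2 change was 1.31 ± 0.21 (SE; 95% interval 0.76 to 1.86; edgeR adjusted p = 0.252, unadjusted p = 0.00156), which ranks 114 of 18385 genes by p. DESeq2 gave EXP2 a log2 change of 1.29 with an adjusted p of 0.0634.

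EXP18 had a log2 change of 0.84 ± 0.25 (SE; 95% interval 0.21 to 1.48; edgeR adjusted p = 0.370, unadjusted p = 0.0187). DESeq2 gave it 0.83 with an adjusted p of 0.121. EXP5 had 0.65 ± 0.45 (SE; edgeR adjusted p = 0.60), and its 95% interval of -0.50 to 1.80 holds both a modest fall and a rise. For EXP1 the value was 1.14 ± 0.61 (SE; edgeR adjusted p = 0.518), with an interval from -0.40 to 2.69. EXP1 entered the test only through the 156OE pair. The low-count filter asked for 1.12 CPM in 2 libraries, which both 156OE libraries and no MT library reached, so its positive sign is not a result. In the edgeR fit without that filter EXP1 had 1.13 ± 0.79 (SE; adjusted p = 0.674).

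In CPM, both 156OE libraries lay above both MT libraries for EXP2 and EXP18 and also for EXP1, which the filter had selected in that direction, and not for EXP5. Of all tested genes, 16.2% showed this pattern and 29.7% showed the opposite one. These shares depend on scaling by library totals. With library totals the median log2 change of all genes in edgeR was -0.066, against 0.012 in the main fit. An exact permutation test over these few libraries has a smallest two-sided p of 0.333, so none was used. In this bulk tissue a higher level per cell and a larger share of expressing cells cannot be told apart.

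**Figure D2:**
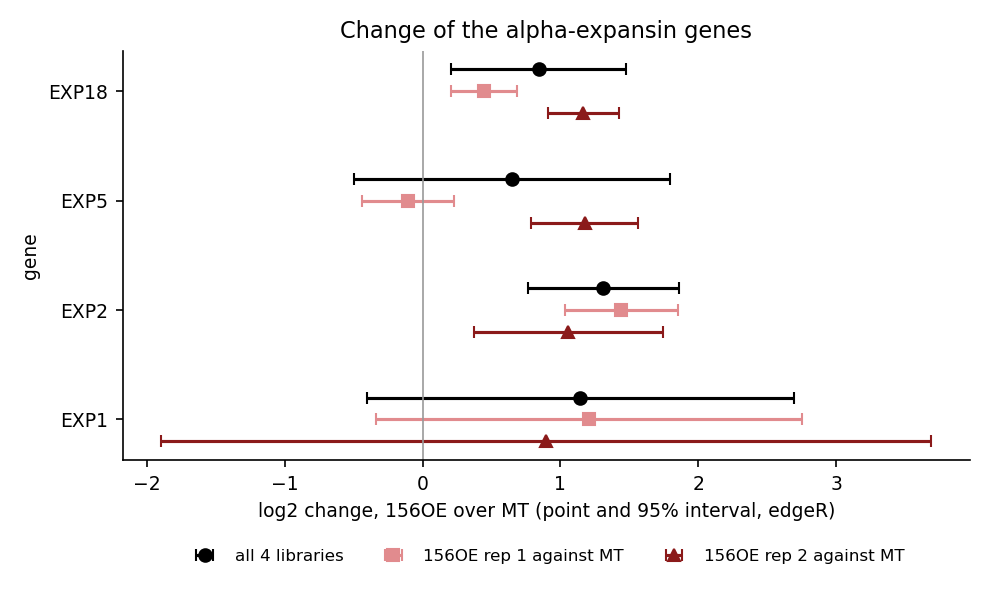
Log2 change of each alpha-expansin gene in edgeR, 156OE over MT, with all libraries and with only 1 of the 156OE libraries against both MT libraries. Points are estimates and bars 95% intervals. With only 1 156OE library the intervals take their spread from the MT pair, so they may be too narrow. The points of EXP2 and EXP18 lie above 0 in all 3 fits. The point of EXP5 lies below 0 for the first 156OE library alone. The EXP1 intervals span 0 in all 3.

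Each 156OE library was also set against the MT pair alone. In these fits a lone 156OE library is assumed to vary as the MT libraries do, and both share the same MT controls. In the first 156OE library, EXP2 rose (log2 change 1.44 ± 0.19, SE; edgeR adjusted p = 0.000682) and so did EXP18 (0.45 ± 0.11, edgeR adjusted p = 0.0331). EXP5 had -0.11 ± 0.15 there (edgeR adjusted p = 0.772). That made 2 of the 4 genes called, where 3.45% of all genes were called higher and 2.28% lower.

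In the second 156OE library, EXP18 rose by 1.17 ± 0.12 on the log2 scale (SE; edgeR adjusted p = 4.4e-05) and EXP5 by 1.18 ± 0.18 (edgeR adjusted p = 0.000974). EXP2 had 1.06 ± 0.31 and just missed the threshold (edgeR adjusted p = 0.0537), with 28 reads in that library. Here again 2 of 4 were called, with 8.16% of all genes called higher and 2.48% lower. Without the first or the second MT library, the 156OE pair alone gave the spread, so calls are not read from these fits. EXP2 had log2 changes of 1.35 and 1.22 in them.

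EXP5 and EXP18 were higher in the second 156OE library than in the first. EXP2 was lower there, but its counting interval included no difference. EXP5 was 2.15 times as high in the second 156OE library as in the first (95% counting interval 1.74 to 2.66, CPM ratio). EXP18 was 1.46 times as high (1.31 to 1.62), and EXP2 0.677 times (0.439 to 1.01). The same ratio between the MT libraries, second over first, was 0.864 for EXP5 (0.748 to 0.997), 0.993 for EXP18 (0.919 to 1.07) and 0.914 for EXP2 (0.676 to 1.23). The step in EXP5 between the 156OE libraries was larger than that of 91.2% of tested genes, counted by its size on the log2(CPM + 1) scale. The steps in EXP2 and EXP18 exceeded those of 70.9% and 71.1% of genes.

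**Figure D3:**
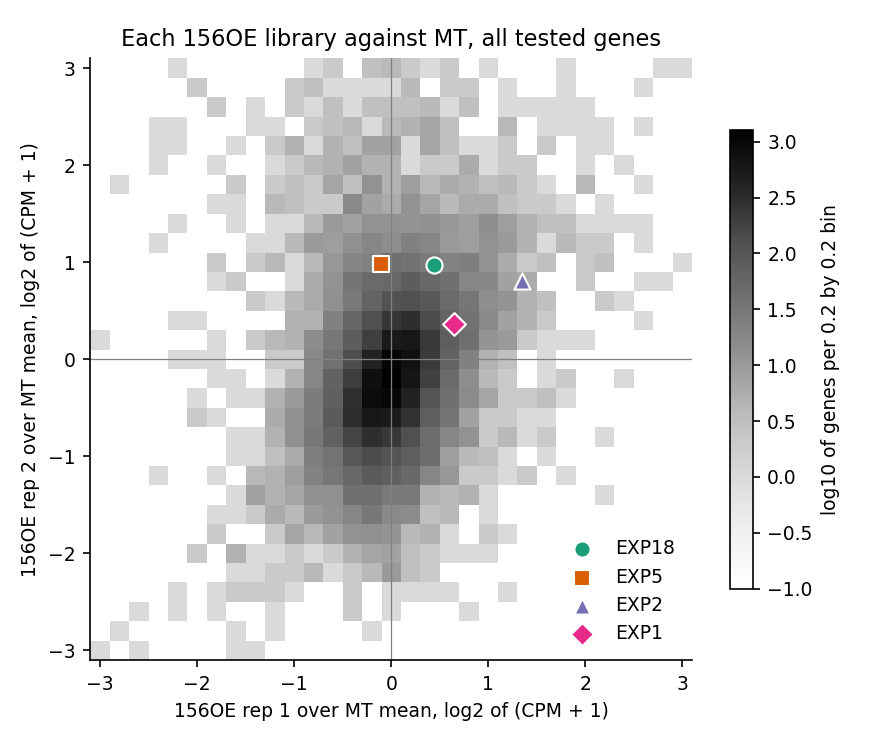
Ratio of the first 156OE library (horizontal) and the second (vertical) to the MT mean, as log2 of (CPM + 1), for all tested genes in grey bins of 0.2 and for the 4 alpha-expansin genes as coloured points; 118 genes lie beyond the axes. EXP2 and EXP18 fall at the upper right, above MT in both libraries, where 22.2% of genes lie on this scale of library totals. EXP1 falls there too, but the low-count filter selected it in that direction. Its vertical place rests on 2 reads. EXP5 falls at the upper left, with 11.6% of genes.

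Relative to the MT mean, EXP18 was higher than 91.5% of tested genes in the first 156OE library and than 94.8% in the second. For EXP2 these places were 99.2% and 93.4%, and for EXP5 they were 35.5% and 94.8%. In the first library EXP2 thus stood near the top of all genes, and EXP5 below the middle.

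Tissue markers also differed between the 156OE libraries. The floral organ genes TM5, TM6 and TAG1 summed to 192.8 and 81.7 TPM in 156OE, against 125.3 and 131.2 TPM in MT, so they were lowest in the library where EXP5 and EXP18 were highest. The meristem genes WUS, CLV3, TKN2 and AN summed to 260.7 and 177.3 TPM in 156OE and to 224.2 and 230.5 TPM in MT. The Rubisco gene RBCS3 had 354 and 692 TPM in 156OE, against 213 and 209 TPM in MT. The other leaf markers were lowest in the second 156OE library. RBCS1 had 182 and 87.0 TPM in 156OE, against 111 and 118 TPM in MT, and CAB1B had 1222 and 586 TPM in 156OE, against 1038 and 1250 TPM in MT. The 3 together had 1758 and 1365 TPM in 156OE and 1362 and 1577 TPM in MT. The wound and jasmonate genes were above MT in both 156OE libraries, but in unequal measure. TD2 had 65.8 and 34.2 TPM in 156OE, against 5.35 and 3.75 TPM in MT, and AOS had 4.86 and 92.0 TPM in 156OE, against 0.934 and 1.86 TPM in MT. The pair summed to 70.6 and 126.2 TPM in 156OE, against 6.29 and 5.61 TPM in MT. The part of these tissues and responses in the expansin values was not tested. For EXP1, the ripening markers PG2, RIN and ACS2 summed to 2.02 and 1.76 TPM in 156OE and to 2.11 and 2.68 TPM in MT.

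A list of other cell-wall genes puts these values in context. It held 36 recalled pairs of ID and symbol, of which 23 passed the check of name and place and 15 were tested. The other 8 were under the low-count limit, among them PG2, TAPG1 and MAN4 with no read in any library. Of the 15, 0 passed over all genes in edgeR in either direction, and DESeq2 called 1 higher and 0 lower, where it called 0.685% of all genes higher and 0.295% lower. At an unadjusted p under 0.05, 3 were higher and 3 lower, with 6.28% of all genes higher and 5.11% lower. The median log2 change of the 15 was 0.09, against 0.01 for all tested genes.

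Of 5 further expansin pairs in the list, those written as EXP3, EXP6 and EXP8 failed the check of name and place, so their values were not used. EXP9 and EXP11 were admitted, and they were 2 of the 3 tested list genes with the lowest p on the higher side. EXP11 (Solyc04g081870) had 6.55 and 6.14 TPM in the 156OE libraries, against 1.44 and 1.74 TPM in the MT libraries. Its log2 change was 2.16 ± 0.33 (SE; edgeR adjusted p = 0.244), on 57 and 11 reads in 156OE and 16 reads in each MT library. EXP9 (Solyc06g005560) was more abundant than any of the 4, at 292 and 305 TPM in 156OE, against 224 and 227 TPM in MT. The log2 change of EXP9 was 0.59 ± 0.14 (SE; edgeR adjusted p = 0.310). Neither gene's 156OE libraries overlapped its MT libraries, and as a ratio the 156OE values of each lay closer together than those of EXP2, EXP5 or EXP18. For EXP11 this closeness is loose, as it rests on 11 reads in the second 156OE library.

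Each 156OE library alone was again set against the same MT pair. These fits take their spread from the MT pair, so only effect sizes are given. The median log2 change of the 15 list genes was 0.16 in the first 156OE library and 0.09 in the second. EXP11 had log2 changes of 2.12 in the first and 2.25 in the second, and EXP9 had 0.44 and 0.73. The endoglucanase gene CEL8 had 0.64 and 0.98, and PMEU1 had 0.50 and 0.17. CEL3 had -0.43 and -0.34, TBG5 had -0.63 and -0.74, and LAT56 had -1.70 and -2.01. XTH9, with 2 reads in each 156OE library, had -1.94 and 0.56. With the first or the second MT library left out, EXP11 had 2.04 and 2.30, EXP9 0.59 and 0.59, and CEL8 0.84 and 0.78.

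Genes of wall enzymes were named from both sides of MT by rule, and with all 4 libraries none passed in edgeR over all genes. CEL8 (Solyc08g082250), an endo-1,4-beta-glucanase gene, had 101 ± 7.80 CPM in 156OE and 61.3 ± 1.82 CPM in MT (SD, n = 2 each). Its log2 change was 0.80 ± 0.15 (SE; edgeR adjusted p = 0.264), and DESeq2 called it higher (adjusted p = 0.0268). The pectin methylesterase gene PMEU1 (Solyc03g123630) had 338 ± 84.0 CPM in 156OE and 282 ± 14.9 CPM in MT (SD, n = 2 each; edgeR adjusted p = 0.463). On the lower side, the endoglucanase gene CEL3 (Solyc01g102580) had 166 ± 6.79 CPM in 156OE and 231 ± 0.874 CPM in MT, and the beta-galactosidase gene TBG5 (Solyc11g069270) had 33.7 ± 4.82 CPM in 156OE and 57.6 ± 8.89 CPM in MT (SD, n = 2 each). Their log2 changes were -0.39 ± 0.11 and -0.67 ± 0.16 (SE; edgeR adjusted p = 0.360 and 0.310).

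LAT56 (Solyc03g058910), a pollen pectate lyase gene, had 1.42 ± 0.334 CPM in 156OE and 5.37 ± 1.11 CPM in MT (SD, n = 2 each). Its log2 change was -1.75 ± 0.39 (SE), with an edgeR adjusted p of 0.302. XTH9 (Solyc12g011030), a xyloglucan endotransglucosylase gene, had 2 and 2 reads in 156OE and 14 and 5 in MT (edgeR adjusted p = 0.710). Because the genes were named from both directions, their mix of signs is not a result. Of all 15 tested list genes 9 had a positive change, as did 51.6% of all tested genes.

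**Figure D4:**
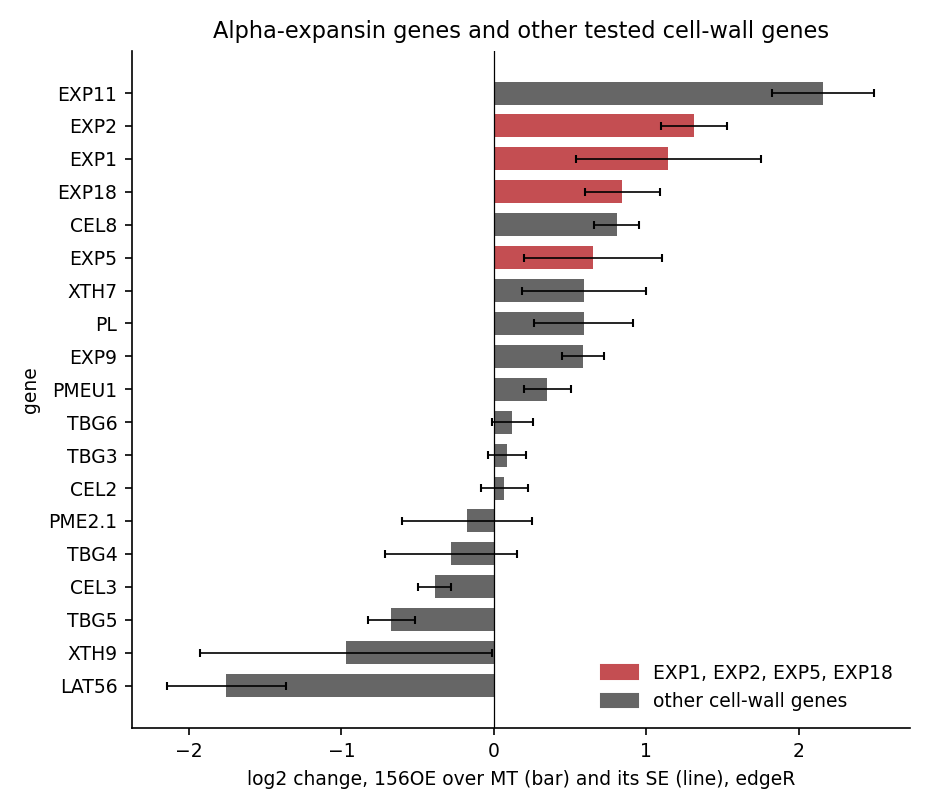
Log2 change in edgeR, 156OE over MT (bars), with its SE (lines), for EXP1, EXP2, EXP5 and EXP18 (red) and for the 15 other tested cell-wall genes (grey). EXP11 (2.16) and EXP2 (1.31) stand at the top and LAT56 (-1.75) at the bottom.

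Likeness of profile was measured as the distance between log2(CPM + 1) values of the 4 libraries, each gene centred on its own mean. Nearest to EXP18 among the 15 cell-wall genes was CEL8, at a distance of 0.274, against a median of 1.01 to all tested genes. CEL8 was also nearest to EXP2 (0.618, median 1.26). Of the 4 members, EXP18 and EXP5 were each other's nearest (0.487), as were EXP2 and EXP1 (0.638). XTH9 was nearest to EXP5 (0.689) and EXP9 to EXP1 (0.432), both on few reads for 1 gene of the pair. With 4 libraries many genes share a profile. Of all tested genes, 0.963% were nearer to EXP18 than CEL8 was, 1.82% nearer to EXP2 than CEL8, 4.51% nearer to EXP1 than EXP9 and 10.7% nearer to EXP5 than XTH9. Between members, 5.66% of genes were nearer to EXP18 than EXP5 was, and 24.4% nearer to EXP1 than EXP2 was.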

How the data were processed

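Salmon, HISAT2, Trimmomatic, SAMtools and Picard appear in the submitters' processing notes, with no order or version. The build and the annotation were not given in the sources used here. Estimated counts per transcript were deposited by the authors without normalization, and between 13.5% and 42.8% of values per library were not whole (tolerance 1e-9), as reads shared by like transcripts were divided. EXP1 had whole values in every library and each other member a fractional value in at least 1, so some of their reads were shared with other transcripts. The TPM values deposited by the authors are scaled to effective length and sum to 1000000 per library.

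Counts were rounded and tested in R 4.3.3 with edgeR 4.0.16 (quasi-likelihood F test, TMM, filterByExpr, genotype only, two-sided, threshold 0.05). Standard errors are the unshrunk log2 change over the square root of F. Alternatives used other scalings, no filter, DESeq2 1.42.0, limma 3.58.1 on log2(TPM + 0.1) and log2(TPM + 1), an offset for effective length, a replicate block and each library left out. The tests were tested on simulated data.

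The files hold no gene names. Recalled names were used where the RefSeq table (assembly SLM_r2.1) had the symbol on the chromosome of the ID and within 0.03 of its relative place among protein-coding genes. All 4 members passed; the SBP-box IDs were not checked, and a wrong close neighbour would pass. Other cell-wall genes were named by a rule: all past the threshold, then the lowest p, at most 4 per direction. Members and lists were chosen with earlier results of these data known. No sequences were used here.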

Additional observations from a re-analysis of the deposited data

How the results depend on the processing

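The log2 changes of EXP2 and EXP18 stayed positive under all 12 alternatives, and that of EXP5 under 11. For EXP2 and EXP18 both 156OE libraries lay above both MT libraries. Rescaling or leaving out 1 library could thus hardly change their sign, which adds no separate support. The change of EXP1 was also positive under all 12, but the low-count filter had selected it in that direction, so its sign is not a result. Leaving out 1 library gave ranges of 0.67 to 1.87 for EXP1, 1.06 to 1.44 for EXP2, -0.11 to 1.18 for EXP5 and 0.45 to 1.17 for EXP18. EXP5 turned to -0.11 without the second 156OE library. The fits with a single 156OE library take their spread from the MT pair, by construction, so no calls are read from them. Outside these fits no alternative called a member; the lowest adjusted p was 0.0634 for EXP2, in DESeq2. Genes called higher numbered 57 and lower 28 in edgeR with no low-count filter, and 144 and 62 in DESeq2. Limma gave 0 higher at either pseudocount. Leaving out 1 library gave 0 to 1532 higher and 0 to 466 lower. The cause was not tested. Limma on TPM moved the median of all genes by -0.17 (pseudocount 1); relative to that median EXP2 had 1.17 and EXP18 0.79.

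The labels do not say whether the replicate numbers pair the samples. Deviations of same-numbered libraries correlated at -0.27 across genes. That value rests on the only replicate difference in each genotype, so it cannot settle the question. With the replicate block edgeR called 0 genes higher, and EXP1, EXP2, EXP5 and EXP18 had 1.02, 1.27, 0.53 and 0.80. A crossed block, added after seeing the data, called 0 higher and 0 lower. Depth limits EXP1 throughout and EXP2 in the second 156OE library.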
